A study of Mus musculus with 4 samples.

Results

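The cells described here are cardiac macrophages with high levels of Cxcl1 and Cxcl2 RNA, taken from a single-cell RNA survey of CD45-positive immune cells of the neonatal mouse heart. They were selected on measured values: complement C1q RNA (C1qa, C1qb and C1qc together) of at least 30, Cxcl2 of at least 100 and Cxcl1 of at least 5 per 10000 UMIs of a cell. A UMI, or unique molecular identifier, stands for 1 counted RNA molecule, and levels below are given in CPM, UMIs per 1000000 UMIs of the summed cells. Cells also had to lie below limits on resident (Lyve1, Cd163, Cbr2), lipid-associated (Gpnmb), Cxcl9, cell cycle (Mki67, Top2a, Birc5, Cenpf) and lymphocyte (Cd3d, Cd3e, Cd3g, Cd79a, Cd79b) genes. In all, 593 of 23961 cells past the quality limits met the rule. C1q macrophages that passed every limit except those on Cxcl1 and Cxcl2 numbered 4226 and are called the other macrophages below, and the 593 cells are called members.

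The survey compared C57BL/6 mice with a homozygous deletion of PD1 (KO) or a heterozygous one (Het), after myocardial infarction (MI) or a sham operation at postnatal day 2. Hearts were taken 7 days after surgery, the atria were removed, and live CD45-positive cells were sorted from an enzymatic digest. The 4 groups were PD1 KO after MI (KO_MI), PD1 Het after MI (Het_MI), PD1 KO after sham (KO_sham) and PD1 Het after sham (Het_sham), with 1 library each and no group of intact PD1. PD1, encoded by Pdcd1, is an inhibitory receptor best known from activated lymphocytes. How many animals went into a library is not given in the sources used here. With 1 library a group, none of the differences below could be checked against replicates or tested. Intervals are exact 95% intervals that cover counting error only, and they are too narrow where a few cells hold many UMIs of a gene.

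Cxcl1 and Cxcl2 are secreted chemokines that draw neutrophils through the receptor Cxcr2. Macrophages make them quickly after sensing microbial products, dying cells or cytokines such as TNF, when transcription factors of the NF-kB family enter the nucleus and switch on chemokine and cytokine genes together with the inhibitors that later shut the response down. Macrophages of the infarcted heart are a known source of such signals, and the enzymatic release of cells from tissue can also switch on these genes.

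The 4 libraries held 6157 to 8379 barcodes and 52701847 to 72002420 UMIs, of which 5074 to 7104 cells passed the quality limits. Any pair of libraries shared 4 to 13 barcodes of kept cells, and no barcode of a member was shared. Pdcd1 had 434 UMIs over the kept cells of KO_MI, 125 in Het_MI, 73 in KO_sham and 61 in Het_sham. The deleted stretch of the gene is not stated, and 3' reads from outside it are still counted, so these UMIs do not check the genotype. Members held 0 UMIs of Pdcd1 in each library. Its ligand Cd274 had 33 UMIs in KO_MI members, 14 in Het_MI, 19 in KO_sham and 3 in Het_sham.

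Members numbered 233 in KO_MI, 153 in Het_MI, 173 in KO_sham and 34 in Het_sham. Their median depth was 7539 UMIs in KO_MI, 9889 in Het_MI, 10732 in KO_sham and 10129 in Het_sham, against 6957, 8144, 8051 and 7515 in the other macrophages of the same libraries in that order. In each library the median depth was higher in members. Median mitochondrial shares of members lay between 4.12% and 4.97%. Median C1q RNA was 94.4 to 101 per 10000 UMIs in members and 102 to 109 in the other macrophages. Macrophage genes that the rule did not use were also present: Adgre1, which encodes F4/80, stood at 344 to 437 CPM in members, the growth factor receptor Csf1r at 796 to 956, Cd68 at 523 to 561 and Mertk, a receptor for dying cells, at 44.2 to 54.4.

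RNA of other cell types was found in a part of the members. Summed RNA of 12 neutrophil markers was 1794 CPM in KO_MI members, 1299 in Het_MI, 1690 in KO_sham and 2595 in Het_sham, against 2795, 3570, 3138 and 2292 in the other macrophages. The sum was thus higher in members in Het_sham and lower in KO_MI, Het_MI and KO_sham. The granule gene Ltf stood at 0 in members of 3 libraries, and Ngp, Camp and Lcn2 at 0 in Het_sham members. S100a8, of the same list, was present, with 1507 UMIs in 35 KO_MI members, 754 in 19 Het_MI, 1184 in 22 KO_sham and 352 in 5 Het_sham members. Droplets with at least 3 UMIs of a neutrophil, lymphocyte or mast cell list made up 33.0% of KO_MI members, 35.9% of Het_MI, 36.4% of KO_sham and 47.1% of Het_sham members, against 34.0%, 37.4%, 35.3% and 39.2% of the other macrophages. Single members carried RNA of a mast cell (1 cell of Het_MI) or a fibroblast (1 cell of KO_sham), and the genes concerned are named below.

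The defining pair are neighbours in the genome, so the proximal promoters of Cxcl1, Cxcl2 and their neighbour Cxcl3 are printed with that of Areg, the gene with the largest ratio in members outside the rule. In GRCm38, Cxcl1 lies at chr5:90891241-90893115 and Cxcl2 at chr5:90903871-90905938, both on the plus strand, with 10755 bases between them. Cxcl3 lies at chr5:90786103-90789600, and Areg at chr5:91139599-91148432. Each sequence below holds the 150 bases before the RefSeq start of the gene (GRCm38.p6, plus strand, 5′ to 3′). The windows are chr5:90891095-90891244 for Cxcl1, chr5:90903749-90903898 for Cxcl2, chr5:90785951-90786100 for Cxcl3 and chr5:91139449-91139598 for Areg. Capitals mark a match to the kappa B consensus, the motif bound by NF-kB, in the 3 chemokine genes, and the cyclic AMP response element TGACGTCA in Areg.
Cxcl1: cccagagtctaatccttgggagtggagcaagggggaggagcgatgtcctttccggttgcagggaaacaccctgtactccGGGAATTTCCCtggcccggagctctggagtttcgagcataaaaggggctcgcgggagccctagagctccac
Cxcl2: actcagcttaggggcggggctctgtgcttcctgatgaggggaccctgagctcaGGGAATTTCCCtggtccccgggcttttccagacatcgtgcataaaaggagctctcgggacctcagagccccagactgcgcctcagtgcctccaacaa
Cxcl3: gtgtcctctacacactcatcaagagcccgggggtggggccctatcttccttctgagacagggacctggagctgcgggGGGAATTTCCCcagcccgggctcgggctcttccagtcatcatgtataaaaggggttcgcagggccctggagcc
Areg: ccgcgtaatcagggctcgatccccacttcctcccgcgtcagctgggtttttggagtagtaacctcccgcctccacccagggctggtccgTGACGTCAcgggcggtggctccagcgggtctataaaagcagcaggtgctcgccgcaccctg

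The kappa B match lay 71 to 61 bases before the start in Cxcl1, 97 to 87 in Cxcl2 and 73 to 63 in Cxcl3, with the same letters in all 3, and it read as a match on both strands. The element in Areg lay 61 to 54 bases before the start. Over the 250 bases before each start, on both strands, the kappa B consensus was found in 1281 of 32851 promoters in the RefSeq table (3.90%). Counted by gene, with any promoter of the gene, it was found in 4.46% of 27025 genes. Of the 17 genes that were higher in members (next paragraph), 14 were in the table and 4 of those had the match, Cxcl1, Cxcl2, Ccrl2 and Nlrp3. Cxcl1 and Cxcl2 chose the cells, so their place among the 17 was set by the rule. None of the 17 listed genes among those lower in members had it. TGACGTCA stood in 1.55% of promoters (1.77% of genes) and in 1 of the 14, Areg. The AP-1 motif TGANTCA (N being C or G), bound by Fos and Jun dimers, stood in 4.46% of promoters (5.16% of genes) and in 1 of the 14, Il1a. A match describes letters in a window and is no evidence of binding. Cxcl3, with the same motif, stood at 23.4 CPM in KO_MI members, 14.1 in Het_MI, 13.2 in KO_sham and 32.9 in Het_sham. In the other macrophages it stood at 7.67, 18.6, 4.70 and 2.45 in the same order, and it was not called.

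The next values compare members with the other macrophages of the same library. Because the cells were chosen on Cxcl1 and Cxcl2, the comparison is a description, and genes that vary with this pair had to differ. A gene was called when its CPM ratio was past 2-fold in the same direction in all 4 libraries. Of 10358 genes with at least 100 UMIs over the 8 sums, 17 were called higher, or 0.164% of those measured, and 20 lower, or 0.193%. Over 3 libraries, the lower calls numbered 43 without KO_MI, 34 without Het_MI and 57 without Het_sham. The median gene had a log2 ratio of −0.12.

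The chosen pair stood as the rule requires. Cxcl2 reached 19562 CPM in KO_MI members, 21084 in Het_MI, 21290 in KO_sham and 16512 in Het_sham, against 5897, 6736, 6887 and 3560 in the other macrophages. Cxcl1 reached 2087 CPM in KO_MI members, 2726 in Het_MI, 2593 in KO_sham and 1755 in Het_sham, against 168, 180, 109 and 66.6 in the other macrophages. The other macrophages of Het_sham therefore had the lowest level of both genes.

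Among the CC chemokines, which draw monocytes and lymphocytes, Ccl4 passed the rule. It stood at 5086 CPM in KO_MI members, 7138 in Het_MI, 7405 in KO_sham and 4003 in Het_sham, against 2424, 3310, 2916 and 1555 in the other macrophages, log2 ratios of 1.07, 1.11, 1.34 and 1.36. Its neighbour on chromosome 11, Ccl3, lies 13228 bases away and had ratios of 1.11, 0.98, 1.28 and 1.05, so Het_MI kept it just short of the call. Ccl2 and Ccl7, which draw monocytes through Ccr2, lie 8258 bases apart on the same chromosome. Ccl7 stood at 778 CPM in KO_MI members, 648 in Het_MI, 911 in KO_sham and 435 in Het_sham, against 274, 275, 353 and 250 in the other macrophages. Its log2 ratios were 1.51, 1.24, 1.37 and 0.80, so it was above 0 in all 4 libraries but not called. Ccl2 had log2 ratios of 1.17, 0.88, 1.12 and 1.18. In the list of 10 CC chemokines, 6 were above 0 in all 4 libraries and none below, with a median log2 ratio of 0.24, whereas 7.46% of all measured genes were above 0 in all 4.

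Of 11 measured members of the cytokine list, 5 were called higher (Tnf, Il1a, Il10, Tnfsf9 and Gdf15) and the list's median log2 ratio was 1.22. Tnf, the cytokine that itself activates NF-kB, stood at 1329 CPM in KO_MI members, 1621 in Het_MI, 1640 in KO_sham and 819 in Het_sham, against 571, 799, 696 and 350 in the other macrophages. Gdf15, a stress-induced hormone of the TGF-beta family that lowers food intake, stood at 789 CPM in KO_MI members, 1361 in Het_MI, 794 in KO_sham and 750 in Het_sham, against 254, 418, 261 and 216. Het_MI was the highest library for Gdf15 in both kinds of cell, and the log2 ratios stayed close together, between 1.60 and 1.80. Tnfsf9, which encodes the 4-1BB ligand that costimulates T cells, had log2 ratios of 1.71, 1.56, 1.68 and 1.46 in KO_MI, Het_MI, KO_sham and Het_sham. Il1a, the alarmin interleukin-1 alpha, had 1.51, 1.48, 1.56 and 1.12 in the same order. Il1b, its secreted relative, had 0.78, 1.14, 1.20 and 1.05 and was not called. The anti-inflammatory cytokine gene Il10 was called as well, at 36.1 CPM in KO_MI members, 77.7 in Het_MI, 44.2 in KO_sham and 19.2 in Het_sham, against 17.0, 20.2, 17.6 and 6.87 in the other macrophages.

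Some called genes act outside the chemokine and cytokine lists. Areg encodes amphiregulin, a growth factor for epithelial and stromal cells that binds the EGF receptor. It stood at 130 CPM in KO_MI members, 182 in Het_MI, 140 in KO_sham and 16.4 in Het_sham, against 20.8, 34.3, 28.6 and 5.24 in the other macrophages, which made it the called gene with the highest median log2 ratio (2.35) outside the rule. Ptgs2, which encodes cyclooxygenase-2 of prostaglandin synthesis, had 146 CPM in KO_MI members, 343 in Het_MI, 170 in KO_sham and 57.5 in Het_sham, against 53.4, 90.2, 45.3 and 18.2. Nlrp3, the sensor of the inflammasome that matures interleukin-1 beta, had log2 ratios of 1.11, 1.07, 1.17 and 1.26 in KO_MI, Het_MI, KO_sham and Het_sham. Ccrl2, a non-signalling receptor that binds the chemoattractant chemerin, had 1.20, 1.24, 1.27 and 1.33. The other called genes were Mir155hg, the host transcript of the inflammatory microRNA miR-155, Hilpda, which encodes a lipid droplet protein induced by hypoxia, Noct, Rasgef1b and Zc3h12c. Without droplets of another lineage 13 of the 17 were still called (Areg, Il1a, Zc3h12c and Hilpda were not), and after thinning 12 of the 17 (Il10 was not called either).

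**Figure D1:**
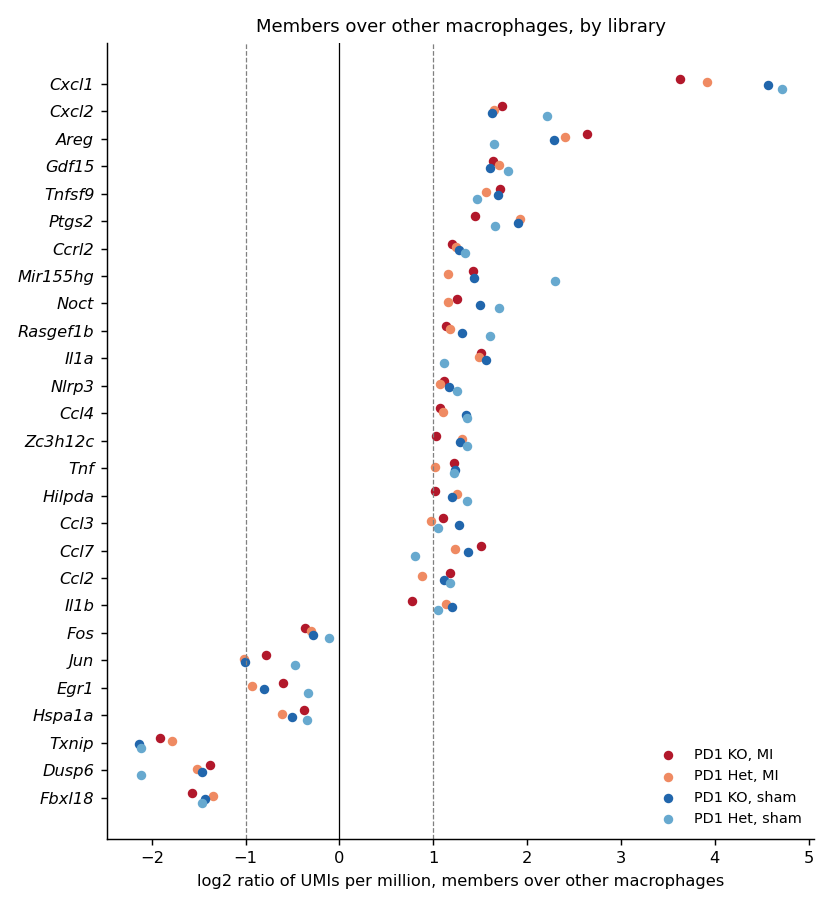
Log2 CPM ratio in members over the other macrophages (x axis) for some of the genes named in the text (y axis). There is 1 point per library, and dashed lines mark 2-fold. Cxcl1 and Cxcl2 chose the cells, and Areg, Gdf15, Tnfsf9 and Ptgs2 follow them, while Fos, Jun, Egr1 and Hspa1a lie below 0 in all 4 libraries. Of the 24 immediate early genes, most of them not drawn, 12 were above 0 and 5 below 0 in all 4 libraries. Over all measured genes, 7.46% were above 0 and 23.6% below 0 in all 4.

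Ratios were smaller for genes of NF-kB feedback than for the cytokines. Of 19 measured genes of the list none was called, and 12 were above 0 in all 4 libraries, with a median log2 ratio of 0.54. Nfkbia, which encodes the inhibitor that holds NF-kB in the cytoplasm, had 1752 CPM in KO_MI members, 2079 in Het_MI, 2024 in KO_sham and 1196 in Het_sham, against 1243, 1503, 1382 and 858 in the other macrophages. The median log2 ratio was 0.97 for Tnfaip3, the ubiquitin-editing inhibitor A20, 0.91 for the nuclear regulator Nfkbiz and 0.57 for the subunit gene Rel. Zfp36, which encodes a protein that destabilises cytokine RNAs, had a median of 0.80. Cd14, the co-receptor for bacterial lipopolysaccharide, had log2 ratios of 0.93, 0.94, 1.23 and 1.23 in KO_MI, Het_MI, KO_sham and Het_sham.

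Oxidative stress genes were also above 0 in most cases. Of 13 measured genes, 11 were above 0 in all 4 libraries and none was called, with a median log2 ratio of 0.56. Srxn1, which encodes sulfiredoxin, had the highest median (1.21), with 69.1 CPM in KO_MI members, 71.0 in Het_MI, 65.8 in KO_sham and 41.1 in Het_sham, against 29.2, 31.3, 24.6 and 29.8 in the other macrophages. Txnrd1 (thioredoxin reductase) had a median log2 ratio of 0.89, Sqstm1 (the autophagy receptor p62) 0.84 and Hmox1 (haem oxygenase) 0.53. Fth1 and Ftl1, the ferritin chains, had a median of 0.13 each.

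Tissue digestion is known to raise immediate early and heat shock genes, so both lists are given beside the chemokines. Of 24 immediate early genes, 12 were above 0 and 5 below 0 in all 4 libraries, with a median log2 ratio of 0.22. Fos stood at 727 CPM in KO_MI members, 763 in Het_MI, 688 in KO_sham and 600 in Het_sham, against 937, 944, 835 and 646 in the other macrophages. Jun had log2 ratios of −0.78, −1.02, −1.01 and −0.47 in KO_MI, Het_MI, KO_sham and Het_sham, and Egr1 had −0.60, −0.93, −0.81 and −0.34. Atf3, a repressor of inflammatory genes that belongs to the same list, was above 0, with 0.41, 0.36, 0.53 and 0.89, and Maff had the highest median (1.06). Of 13 heat shock genes, 1 was above 0 and 4 below 0 in all 4 libraries, with a median of −0.17. Both lists stand beside all measured genes, of which 7.46% were above 0 and 23.6% below 0 in all 4 libraries. Hspa1a, an inducible Hsp70 gene, had log2 ratios of −0.37, −0.61, −0.51 and −0.35. The part of the digestion in the member state was not tested, since all libraries went through it.

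Among lists that mark other macrophage and monocyte states, 1 had a median above 0. The lipid-associated macrophage list had 0.12 over 14 genes, with 4 above 0 and 1 below 0 in all 4 libraries. The median log2 ratio was −0.17 over 12 resident macrophage genes, −0.31 over 9 MHC class II genes, −0.19 over 11 microglia-like resting macrophage genes and −0.26 over 18 type I interferon-stimulated genes. In the monocyte list the median was −0.62, with Ly6c2, a marker of classical monocytes, called lower. Few cells carried Ly6c2: it was seen in 19 to 102 of the other macrophages a library, and members held 0 to 26 UMIs. Its call was lost without droplets of another lineage and after thinning. The median of all measured genes was −0.12, close to that of the resident and microglia-like lists. Nothing in these lists was called higher, a call that 0.164% of all measured genes received.

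**Figure D2:**
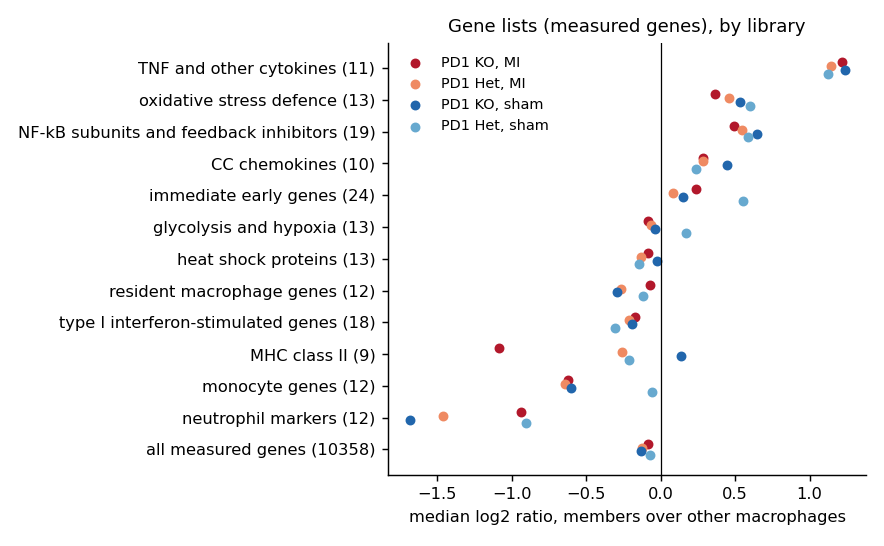
Median log2 ratio of members over the other macrophages (x axis) for 12 gene lists and for all measured genes (y axis, number of genes in brackets, without the genes of the rule), 1 point per library. The cytokine list has the highest median (1.22 over the libraries), the oxidative stress (0.56) and NF-kB (0.54) lists follow, and the median of all genes is −0.12.

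Genes that were lower in members were of different kinds. Txnip encodes an inhibitor of thioredoxin that also restrains glucose uptake. It stood at 56.9 CPM in KO_MI members, 72.2 in Het_MI, 54.2 in KO_sham and 76.7 in Het_sham, against 214, 249, 238 and 331 in the other macrophages. After each cell was thinned to 3000 UMIs, a Txnip UMI was seen in 11.6% of KO_MI members, 14.6% of Het_MI, 14.6% of KO_sham and 15.2% of Het_sham members, against 37.3%, 43.6%, 41.7% and 52.7% of the other macrophages. Dusp6, a phosphatase of ERK kinases, had a median log2 ratio of −1.49 and Fbxl18 −1.45. The neutrophil genes Ngp, Camp, Lcn2, Ltf and Retnlg were called too, but few cells carried them. In the other macrophages, Ngp was seen in 9 to 41 cells a library, and 10 cells held 91.2% to 100% of its UMIs, while members held 0 to 2 Ngp UMIs a library.

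Members were also set against macrophages that passed the Cxcl2 limit with little Cxcl1. Cells with Cxcl2 of at least 100 and Cxcl1 under 5 per 10000 UMIs numbered 288 in KO_MI, 206 in Het_MI, 247 in KO_sham and 83 in Het_sham. Set against these cells, Cxcl1 was the single gene past 2-fold higher in all 4 libraries and 0 genes were lower, out of 7717 measured. In that comparison the median log2 ratio was 0.86 for Areg, 0.55 for Ptgs2, 0.54 for Tnfsf9, 0.45 for Noct, 0.42 for Gdf15 and 0.12 for Tnf, against −0.14 for Ccl4 and −0.066 for Il10. Pooled over libraries, 34 members within 20% above the limit had 5594 CPM of Ccl4, 1625 of Tnf, 827 of Gdf15 and 798 of Ccl7. The 40 cells within 20% below it had 5141 of Ccl4, 1135 of Tnf, 638 of Gdf15 and 498 of Ccl7. Ptgs2 stood at 136 CPM just inside the limit and at 47.8 just outside it. These near cells are a description, with few cells on either side.

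Members varied widely among themselves. Within KO_MI members, Cxcl2 ran from 101 to 533 per 10000 UMIs of a cell, and its median was 177 there, 197 in Het_MI, 194 in KO_sham and 161 in Het_sham. The median of Cxcl1 was 17.5 per 10000 UMIs in KO_MI, 19.0 in Het_MI, 19.6 in KO_sham and 14.2 in Het_sham. Ccl4 was found in nearly every member, and 0.429% of KO_MI, 1.96% of Het_MI, 1.16% of KO_sham and 0% of the 34 Het_sham members lacked a UMI of it. Tnf was nearly as widespread, and 1.96% to 4.29% lacked it. Gdf15 was uneven, since 31.8% of KO_MI members, 22.9% of Het_MI, 35.8% of KO_sham and 38.2% of Het_sham had no UMI, and the 10% of members with the most held 50.6% to 55.8% of its UMIs. Areg was confined to fewer cells still: 87.1% of KO_MI members, 83.0% of Het_MI, 83.8% of KO_sham and 88.2% of Het_sham had no UMI, and the 10% with the most held 94.6% to 100%. Its ratio thus rests on 30 KO_MI, 26 Het_MI, 28 KO_sham and 4 Het_sham members.

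Free RNA in a droplet can give a UMI in a cell that does not make it, so the same shares were taken in B cells, which should lack these genes. Thinned to 3000 UMIs, Gdf15 was seen in 54.2% of KO_MI members, 64.9% of Het_MI, 51.5% of KO_sham and 54.5% of Het_sham members, in 17.1% to 30.9% of the other macrophages and in 1.5% to 4.44% of B cells. Areg was seen in 10.6% of KO_MI members, 11.9% of Het_MI, 10.5% of KO_sham and 3.03% of Het_sham members, in 1.16% to 2.83% of the other macrophages and in 0.113% to 1.18% of B cells. Ccl7 was seen in 52.8%, 49.0%, 60.2% and 45.5% of members in the same order, and in 0.809% to 2.33% of B cells. All of these shares in members lay above the B cell level of their library.

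Which genes varied together among members was described by Spearman correlations over cells within a library, without a test, as the cells share a library and differ in depth. Ccl2 and Ccl7, the neighbours on chromosome 11, had the highest values: 0.60 over 233 KO_MI, 0.59 over 153 Het_MI, 0.58 over 173 KO_sham and 0.54 over 34 Het_sham members. Tnf with Ccl4 had 0.35 in KO_MI, 0.55 in Het_MI, 0.52 in KO_sham and 0.22 in Het_sham. Cxcl1 with Cxcl2, although both chose the cells, had 0.28, 0.32, 0.32 and 0.05 in the same order. For Gdf15 with Cxcl2 the values lay between 0.02 and 0.19, which in sparse counts is no finding either way.

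How common the state was depended on the library. Members made up 13.7% [12.1 to 15.4] of the 1705 macrophages past the other limits in KO_MI, 14.7% [12.6 to 17.0] of 1038 in Het_MI, 13.8% [11.9 to 15.8] of 1258 in KO_sham and 4.16% [2.90 to 5.76] of 818 in Het_sham (Clopper-Pearson intervals). The share was close in 3 libraries and low in Het_sham. The ratio of shares was 0.927 [0.753 to 1.14] for KO_MI over Het_MI, 3.55 [2.43 to 5.31] for Het_MI over Het_sham, 0.994 [0.813 to 1.22] for KO_MI over KO_sham and 3.31 [2.28 to 4.93] for KO_sham over Het_sham. Het_sham enters both high ratios. As a share of all kept cells, members were 3.28% in KO_MI, 3.02% in Het_MI, 2.70% in KO_sham and 0.632% in Het_sham. After thinning to 3000 UMIs, with 217, 76, 102 and 184 shallower cells left out, the share of macrophages was 14.7% in KO_MI, 14.6% in Het_MI, 14.2% in KO_sham and 5.21% in Het_sham. The other macrophages of Het_sham also had less Cxcl2, with a median of 3.84 per 10000 UMIs of a cell, against 31.1 in KO_MI, 40.7 in Het_MI and 32.2 in KO_sham.

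The same thresholds were reached in macrophages that the rule leaves out. Among C1q macrophages excluded for Lyve1, Cd163 and Cbr2, genes of resident cardiac macrophages, 15.7% (137 of 872) in KO_MI, 14.8% (144 of 972) in Het_MI, 15.2% (170 of 1122) in KO_sham and 3.66% (22 of 601) in Het_sham were at both chemokine thresholds. Among those excluded for cell cycle genes the shares were 15.1% in KO_MI, 16.6% in Het_MI, 19.0% in KO_sham and 5.05% in Het_sham. Gpnmb-excluded macrophages gave 8.36% (26 of 311) in KO_MI and 7.48% (11 of 147) in Het_MI, with 19 and 10 cells in KO_sham and Het_sham. Cells under the C1q limit reached both thresholds in 0.556% in KO_MI, 0.579% in Het_MI, 0.535% in KO_sham and 0.115% in Het_sham. In each of these classes with over 100 cells, the share was lowest in Het_sham.

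**Figure D3:**
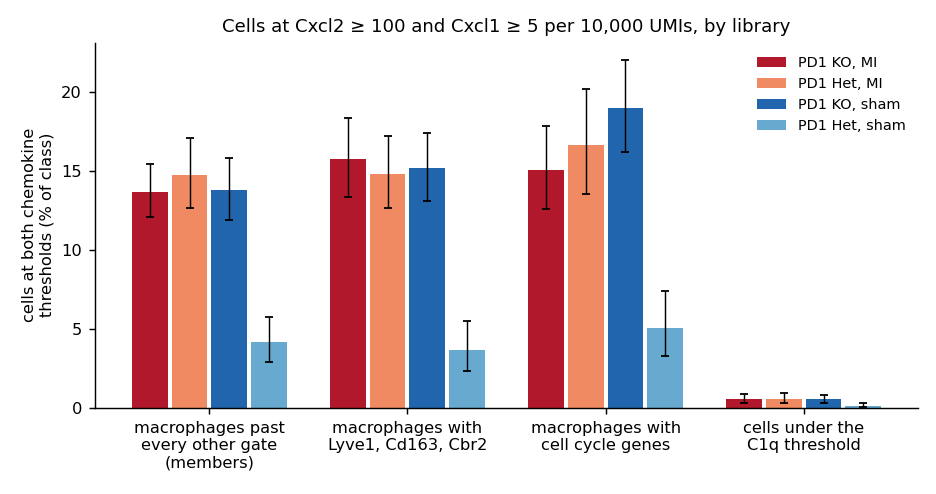
Cells at both chemokine thresholds as a percentage of their class (y axis) in 4 classes of cells (x axis), 1 bar per library, with exact 95% intervals for counting error. In the first class the bars are the member shares, 13.7%, 14.7% and 13.8% in KO_MI, Het_MI and KO_sham, against 4.16% in Het_sham.

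Libraries differed in the sex of their cells, which the labels do not give. Macrophages were divided by UMIs of Xist, the RNA of the inactive X chromosome, and of 4 Y-linked genes (Ddx3y, Uty, Eif2s3y, Kdm5d), a division chosen after the data were seen. KO_MI had 1612 macrophages with Xist UMIs and no Y-linked UMI and 0 with a Y-linked UMI. The other libraries held both kinds: 199 and 539 in Het_MI, 357 and 492 in KO_sham, and 140 and 284 in Het_sham. Among cells with Xist alone, members made up 13.9% in KO_MI, 12.1% in Het_MI, 26.6% [22.1 to 31.5] in KO_sham and 3.57% in Het_sham. Among cells with Y-linked UMIs alone, they made up 18.2% in Het_MI, 10.4% [7.82 to 13.4] in KO_sham and 5.99% in Het_sham. Cells with UMIs of both or of neither were left out. Those with neither made up 5.45% of macrophages in KO_MI, 23.8% in Het_MI, 26.5% in KO_sham and 44.0% in Het_sham. In that order their median depth was 2814, 5930, 6514 and 3943 UMIs, and 9.68%, 9.72%, 5.41% and 2.5% were members. In KO_sham the median of Cxcl2 was 90.6 per 10000 UMIs in Xist cells and 41.9 in Y-linked cells, at median depths of 8382 and 9119 UMIs. Within 1 library, then, cells of different animals differed by more than the counting intervals. Whether sex or another difference between the animals moved with it cannot be told apart. In cells with Xist alone, the ratio of shares was 1.15 for KO_MI over Het_MI, 0.522 for KO_MI over KO_sham and 7.45 for KO_sham over Het_sham.

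**Figure D4:**
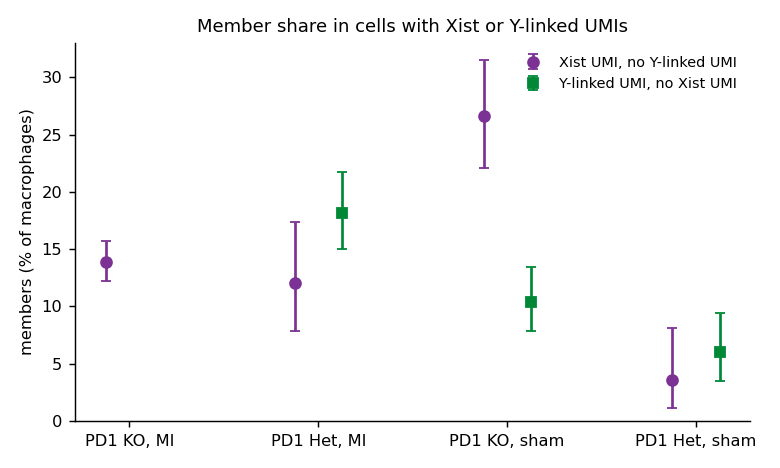
Members as a percentage of macrophages (y axis) in each library (x axis), for cells with an Xist UMI and no Y-linked UMI and for cells with a Y-linked UMI and no Xist UMI, with exact 95% intervals for counting error. KO_MI has no cell of the second kind, and in KO_sham the first kind has 26.6% members and the second 10.4%.

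Between libraries, the RNA of members was summed and compared. A gene with at least 30 UMIs over both libraries was called when the interval of its ratio lay beyond 1.5-fold. The ratio in the other macrophages is set beside it. Since 1 cell can hold most UMIs of a gene in sums this small, that share is given where it passes 50%.

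In infarcted hearts, PD1 KO against Het, RNA summed over KO_MI members held more of monocyte genes and of Arg1 and less of Ptgs2, Il10 and Gdf15. The calls of Ptgs2, Il10 and Gdf15 were lost in cells with Xist alone, and KO_MI had no macrophage with a Y-linked UMI. Of 7511 genes measured, 49 were called higher (0.652%) and 24 lower (0.320%), or 14 lower with the top cell of each gene left out. In the monocyte list 5 of 8 measured genes were called higher (Plac8, Fn1, F10, S100a4 and S100a6), and 3 of 11 complement genes (Cfb, Cfp and C4b). Summed RNA of the monocyte list was 1713 CPM in KO_MI members and 613 in Het_MI members, against 1632 and 915 in the other macrophages. The part of monocyte RNA in these differences was not tested.

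Arg1, which encodes arginase of alternatively activated macrophages, stood at 75.7 CPM in KO_MI members and 8.56 in Het_MI members, a log2 ratio of 3.14 [2.35 to 4.05], with 4.44 in the other macrophages. Plac8, a gene of blood monocytes, stood at 173 and 36.7 (2.23, against 0.96 in the other macrophages). Fn1, which encodes the matrix protein fibronectin, stood at 513 in KO_MI members and 119 in Het_MI members (2.11, against 1.38). These sums rested on a small part of the members. Arg1 was seen in 7.30% of KO_MI and 2.61% of Het_MI members, and Fn1 in 20.6% and 17.0%. Plac8 was seen in 9.44% of KO_MI and 9.80% of Het_MI members, so it was not found in a larger share of KO_MI members. Both S100a4, a calcium-binding protein of motile cells, and Fcna, a lectin of the complement system, had ratios of 1.51. All 5 were higher in KO_MI in both kinds of cell. Fcna had 1.17 without its top cell and 0.23 in cells with Xist alone, and was called in neither, and S100a4 had 0.54 without droplets of another lineage and was not called there. In the list of anti-inflammatory regulators, which holds Arg1, 1 of 12 genes was called higher and 1 lower (Il10). In some called genes 1 cell held most UMIs. Marco, a scavenger receptor, had a log2 ratio of 6.87, but 1 cell held 74.1% of its UMIs and the value without that cell was 4.92. Without the top cell, the lysozyme gene Lyz1 had 2.05 (81.3% in 1 cell) and Fabp4, a fatty acid carrier, 1.32 (62.0%), and all 3 were still called. The mast cell genes Mcpt4, Cma1, Tpsb2 and Cpa3 were lower in KO_MI through 1 Het_MI cell, which held 94.2% to 99.1% of their UMIs.

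Ptgs2 stood at 146 CPM in KO_MI members and 343 in Het_MI members, a log2 ratio of −1.24 [−1.45 to −1.03], with −0.76 in the other macrophages. It was seen in 58 of 233 KO_MI members and in 68 of 153 Het_MI members. In cells with Xist alone (224 KO_MI and 24 Het_MI members) the ratio was 0.17, so the direction did not hold there. Il10 stood at 36.1 in KO_MI and 77.7 in Het_MI members (−1.11, against −0.25). Gdf15 had a ratio of −0.79 [−0.88 to −0.69], with −0.72 in the other macrophages. In cells with Xist alone Il10 had −0.0065 and Gdf15 −0.10, and without the top cell −0.87 and −0.64, and neither was called. Igf1r, the receptor of insulin-like growth factor 1, had −1.36, Gramd1a, a cholesterol carrier, −1.16, and Bmp2, a growth factor of the TGF-beta family, −1.06. Without droplets of another lineage Igf1r had −1.17 and Gramd1a −0.75, and neither was called. Cxcl1 (−0.39), Cxcl2 (−0.11), Ccl4 (−0.49), Tnf (−0.29) and Ccl7 (0.26) were not called. Of the chemokine and cytokine lists, Ccl6 was called higher (1.03, against 0.64 in the other macrophages), as was Il6 (2.78, from 14 KO_MI and 3 Het_MI members), and the platelet chemokine gene Ppbp was called lower (−1.59).

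In PD1 Het hearts, MI against sham, members of Het_MI had more RNA of MHC class II and cytokine genes and of Ptgs2, on the basis of 153 Het_MI and 34 Het_sham members. Of 6076 genes measured, 47 were called higher (0.774%) and 24 lower (0.395%), or 3 lower with the top cell of each gene left out. In the cytokine list 6 of 8 genes were called higher (Tnf, Il1a, Il1b, Il10, Tnfsf9 and Gdf15), and in the MHC class II list 4 of 6. Tnf stood at 1621 CPM in Het_MI members and 819 in Het_sham members, a log2 ratio of 0.99 [0.81 to 1.16], with 1.19 in the other macrophages. Gdf15 had 0.86 (0.95 in the other macrophages), Ccl4 0.83 (1.09), Il1b 1.29 (1.20) and Nfkbia 0.80 (0.81). These 5 genes were higher in Het_MI in both kinds of cell. In cells with Xist alone (24 Het_MI and 5 Het_sham members), Tnf had 0.015, Gdf15 0.39, Areg 0.94 and Il1rn 1.04, none of them called, while Ccl4 (1.46) was. Without droplets of another lineage Ccl4 had 0.51 and Gdf15 0.68, and neither was called. Ptgs2, the 1 called gene of 6 in the prostaglandin list, stood at 343 in Het_MI and 57.5 in Het_sham members (2.58, against 2.31), and Areg at 182 and 16.4 (3.47, against 2.71), the lower value resting on 4 cells with 6 UMIs. Il1rn, the interleukin-1 receptor antagonist, had 3.50, against 1.84. The monocyte chemokines were not called, with Ccl2 at −0.42 and Ccl7 at 0.57.

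H2-Eb1, an MHC class II chain that presents antigen to T cells, stood at 177 CPM in Het_MI members and 5.48 in Het_sham members, a log2 ratio of 5.02 [3.15 to 8.07], with 3.68 in the other macrophages. H2-Ab1 had 4.41, H2-Aa 4.33 and Cd74, their invariant chain, 2.06 (2.19 in the other macrophages). Few members carried the chains, 19 of 153 in Het_MI and 1 of 34 in Het_sham for H2-Eb1. H2-Ab1 was seen in 14.4% of Het_MI and 2.94% of Het_sham members, and H2-Aa in 13.1% and 8.82%. Cd74 was seen in 52.9% and 70.6%, so it was not found in a larger share of Het_MI members. Fn1 had 3.85 from 26 and 2 cells, and −2.23 in cells with Xist alone. Lower in Het_MI members were Fabp3, a fatty acid carrier (−1.66, against −0.91), Hmgn5 (−1.81, against −0.03) and Larp1b (−1.66, against 0.31). Without the top cell Fabp3 had −1.24 and Larp1b −1.41, and neither was called. The call of Hmgn5 was lost without droplets of another lineage (−0.72). In Slpi, Ifitm1, Stfa2 and Csta2, 1 cell held 50% to 72.5% of the UMIs, and Stfa2 had 0.49 without it. Mgl2, a lectin of alternatively activated macrophages, had −1.45, but 0.70 without droplets of another lineage, and it was not called with TMM factors (−1.33) or without its top cell (−0.71). Mcpt4 and Cma1 were higher through the mast cell RNA of 1 Het_MI member.

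**Figure D5:**
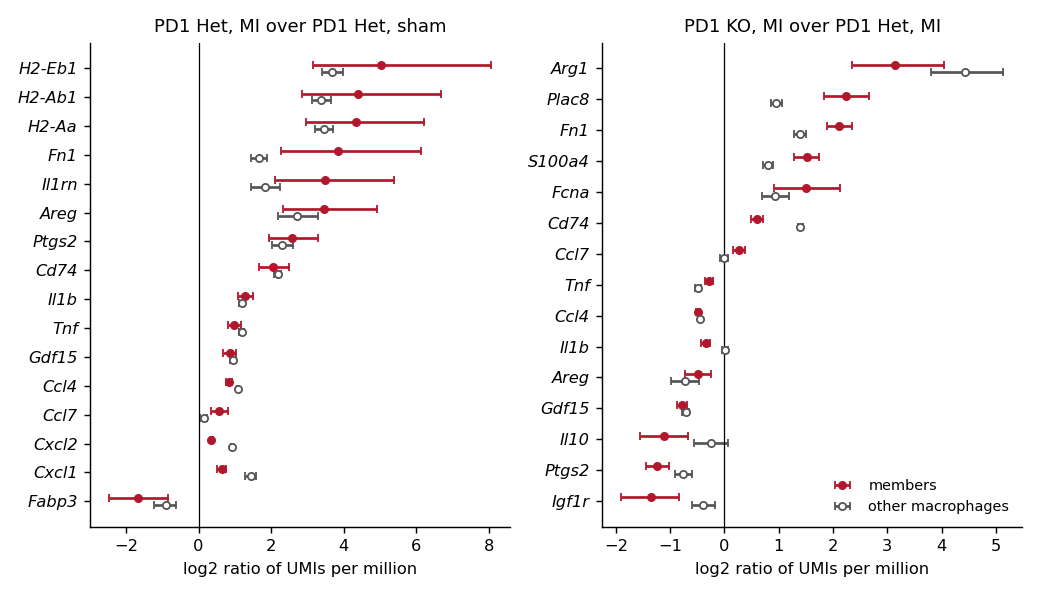
Log2 CPM ratio (x axis) for named genes (y axis) in members (filled) and in the other macrophages (open), for Het_MI over Het_sham on the left and KO_MI over Het_MI on the right, with exact 95% intervals for counting error. On the left H2-Eb1 (5.02), Areg (3.47) and Tnf (0.99) lie above 0 in both kinds of cell, and on the right Arg1 (3.14) lies above and Ptgs2 (−1.24) below.

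In PD1 KO hearts, MI against sham, members of KO_MI had more RNA of monocyte and MHC class II genes and of some interferon-stimulated genes. Of 7720 genes measured, 65 were called higher (0.842%) and 22 lower (0.285%), or 11 lower with the top cell of each gene left out. Tnf stood at 1329 CPM in KO_MI members and 1640 in KO_sham members (−0.30), Ccl4 had −0.54, Ccl2 −0.62, Cxcl1 −0.31 and Gdf15 −0.01, and none of them was called, although in cells with Xist alone Ccl4 (−0.77) was called lower. In the chemokine and cytokine lists Ccl6 (1.09) and Il6 (2.41) were called higher and Ppbp (−1.71) lower. In the monocyte list 6 of 9 genes were called higher, in the type I interferon list 5 of 15 (Ifit1, Rsad2, Oasl2, Irf7 and Ifi27l2a) and in the MHC class II list 4 of 6. H2-Aa stood at 350 CPM in KO_MI members and 157 in KO_sham members, a log2 ratio of 1.16 [0.96 to 1.36], with 2.37 in the other macrophages. Fn1 had 2.85 (2.39 in the other macrophages). Arg1 had 149 UMIs in KO_MI and 0 in KO_sham members, a log2 ratio of at least 5.58 against a floor of 3 UMIs in the KO_sham sum. Marco (6.50), Lyz1 (6.02) and Fabp4 (2.60) again drew on 1 KO_MI cell, and had 4.55, 3.59 and 1.20 without it, where Lyz1 was no longer called. Maz, which encodes a zinc finger protein, had −1.11. The call of Maz was lost without its top cell (−1.05), with TMM factors (−1.06) and without droplets of another lineage (−0.99). Ptn, Col3a1, Dcn and Sparc were lower in KO_MI through 1 KO_sham cell with fibroblast RNA, which held 86.7% to 96.4% of their UMIs.

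In sham hearts, PD1 KO against Het, members of KO_sham had more RNA of cytokine and MHC class II genes than those of Het_sham, the library that also serves as baseline in the Het comparison of MI with sham. Of 6390 genes measured, 40 were called higher (0.626%) and 11 lower (0.172%), or 6 lower with the top cell of each gene left out. Tnf stood at 1640 CPM in KO_sham members and 819 in Het_sham members, a log2 ratio of 1.0 [0.83 to 1.18], with 0.99 in the other macrophages. In the cytokine list 4 of 8 genes were called higher (Tnf, Il1a, Il1b and Tnfsf9), in the CC chemokine list 3 of 9 (Ccl4, Ccl5 and Ccl7), in the MHC class II list 4 of 6 and in the NF-kB list 1 of 19 (Nfkbia). The call of Tnf was lost in cells with Xist alone (0.60, from 95 KO_sham and 5 Het_sham members) and that of Ccl4 without droplets of another lineage (0.40). Ccl4 had 0.89 (0.91 in the other macrophages), Ccl7 1.06 (0.50), Il1a 1.74 (1.30) and Ptgs2 1.56 (1.32). Areg stood at 140 and 16.4 (3.09, against 2.45). Gdf15 was not called, at 794 in KO_sham and 750 in Het_sham members (0.08). H2-Eb1 had 4.80, H2-Ab1 4.23 and H2-Aa 3.84, again with 1, 1 and 3 Het_sham members behind the lower value. H2-Eb1 was seen in 8.67% of KO_sham and 2.94% of Het_sham members, and H2-Ab1 in 8.09% and 2.94%. H2-Aa was seen in 8.09% and 8.82%, and Cd74 in 58.4% and 70.6%. Neither H2-Aa nor Cd74 was thus found in a larger share of KO_sham members. Lower in KO_sham were Fabp3 (−1.84) and Smn1, the survival motor neuron gene (−1.45). Without the top cell Fabp3 had −1.42 and Smn1 −1.13, and neither was called. The call of Smn1 was also lost with TMM factors (−1.36), and that of Fabp3 at up to 5% mitochondrial UMIs (−1.11). Spp1, which encodes osteopontin, was lower through 1 Het_sham cell with 74.0% of its UMIs, and Ifitm1 and Slpi through 1 cell with 63.3% and 57.9%. Col3a1 and Sparc were higher through the fibroblast RNA of 1 KO_sham cell.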

How the data were processed

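Live CD45-positive cells from 4 groups of hearts were measured with 10x Genomics 3' v3 chemistry, per the labels' protocols. The authors deposited raw UMI counts in a gene by barcode matrix for each library. Per the file headers the matrices came from Cell Ranger 4.0.0, while Cell Ranger 6.1.1, Seurat 4 and the builds mm10 and GRCm38 are named per the submitters' processing notes. How cells were called is not given in the sources used here. No authors' cell annotation was used here.

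Cells with at least 500 UMIs, at least 200 genes and at most 10% mitochondrial UMIs were kept. Members had at least 30 UMIs of the 3 C1q genes, 100 of Cxcl2 and 5 of Cxcl1 per 10000 UMIs, under 4 UMIs of Lyve1, Cd163 and Cbr2 together, at most 2 of Gpnmb, at most 1 of Cxcl9, under 5 of the 4 cell cycle genes and at most 2 of the 5 T and B cell genes. The members and the 30 gene lists were chosen with earlier results of these data known. Of the listed genes 3 were not in the files. Named genes were those of the rule, the 20 highest and 10 lowest of the comparison with the other macrophages, up to 8 (or 5) each way of a comparison of libraries, all at 50 CPM or more, and up to 4 of each list described.

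Sums of UMIs over cells were scaled to the total of their class (CPM, UMIs per 1000000). Ratios carry conditional binomial intervals and shares Clopper-Pearson intervals at 95%. A count of 0 was replaced by 3 UMIs per sum, and the log2 ratio was set to 0 where that floor could show no direction. Doublets were not removed from the values reported. Scrublet's method, as in scanpy 1.11.5, called 5, 1, 0 and 177 cells with its automatic threshold in KO_MI, Het_MI, KO_sham and Het_sham, which is no working threshold in 3 of them. A threshold at 0.8% per 1000 barcodes called 461, 175, 366 and 314 cells, among them 7, 1, 4 and 0 members. TMM factors came from edgeR 4.0.16. The scripts were tested on simulated data. Promoters are from RefSeq and gene positions from GENCODE, both on GRCm38. A gene that the naming rule picks among those lower in members is not reported here, and the counts of calls include it.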

Additional observations from a re-analysis of the deposited data

Results flagged for a closer look

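The share of macrophages that were members differed in its ratio of MI to sham between the genotypes. Members made up 13.7% in KO_MI and 13.8% in KO_sham, a ratio of 0.994 [0.813 to 1.22], while Het_MI had 14.7% and Het_sham 4.16%, which gives 3.55. The PD1 KO ratio divided by the PD1 Het ratio was 0.280. The 4 libraries are single samples, so this difference between genotypes was not tested, and it is listed because the PD1 KO ratio lay below 1, within its counting interval, and the PD1 Het ratio above 1. The mix of Xist and Y-linked cells also differed between the libraries, and its part in this value was not tested.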

How the results depend on the processing

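No paired analysis was possible because each group has 1 library and no test was made. The member share stayed lowest in Het_sham under all 11 alternatives tried, 2 of them chosen after seeing the data. With Cxcl2 of at least 200 and Cxcl1 of at least 10, the ratio of shares was 5.52 for Het_MI over Het_sham and 5.13 for KO_sham over Het_sham. In cells with Xist alone it was 1.15 for KO_MI over Het_MI, 0.522 for KO_MI over KO_sham and 7.45 for KO_sham over Het_sham.

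All 17 genes higher in members were called with TMM (20 calls) and median-of-ratios factors (22 calls), 13 of them without droplets of another lineage and 12 after thinning. Lower calls numbered 9 without droplets of another lineage, where Camp had 1.10 and Retnlg 0.77 (log2), and 10 after thinning. Against cells with Cxcl2 but little Cxcl1, there were 1 higher and 0 lower calls, with Ccl4 at −0.14, Stfa3 at 0.37 and Il10 at −0.066. Against cells excluded for Lyve1, Cd163 and Cbr2 there were 43 higher and 258 lower calls, and against those excluded for Gpnmb 31 and 68, with Retnlg at 0.095. Both classes were taken without the Cxcl9, cell cycle and lymphocyte limits that members had to pass. Lower calls of genes of these limits, such as Cenpf, therefore followed from the rule, as did that of Gpnmb against the Gpnmb class. With 1 library left out at a time, higher calls ranged from 18 to 23 and lower calls from 29 to 57 (43 without KO_MI, 34 without Het_MI and 57 without Het_sham).

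For KO_MI over Het_MI, higher and lower calls numbered 25 and 13 without droplets of another lineage, 22 and 14 at 100 or more UMIs and 78 and 51 at 1 or more. Higher calls numbered 88 with Cxcl2 of at least 50 and Cxcl1 of at least 2.5. Lower calls numbered 11 at up to 5% mitochondrial UMIs, 15 in Xist cells (Ptgs2 at 0.17) and 14 without the top cell of each gene (Tpsb2 at 0.32, and 0.37 without Scrublet calls). For Het_MI over Het_sham, lower calls numbered 13 with TMM, 14 with median-of-ratios, 10 at 100 or more UMIs, 63 at 1 or more and 3 without the top cell. Mcpt4 had −0.54 without Scrublet calls and −0.58 without its top cell. Ifitm1 had 0.34 and Mgl2 0.70 without droplets of another lineage. Stfa2 had 2.49 at up to 5% mitochondrial UMIs and 0.49 without its top cell, and Fn1 −2.23 in Xist cells.

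For KO_MI over KO_sham, higher and lower calls numbered 35 and 13 without droplets of another lineage, 99 and 35 with Cxcl2 of at least 50, 36 and 6 at 100 or more UMIs and 98 and 46 at 1 or more. Lower calls numbered 9 without Scrublet calls and 11 without the top cell. Col3a1, Dcn and Sparc had 0.78, 1.56 and 0.15 without Scrublet calls, 0.93, 1.62 and 0.32 without droplets of another lineage (Ptn 0.034), and 0.95, 1.53 and 1.78 without the top cell. For KO_sham over Het_sham, there were 66 higher and 18 lower calls with Cxcl2 of at least 50, and lower calls numbered 28 in Xist cells, 3 at 100 or more UMIs, 39 at 1 or more and 6 without the top cell. Spp1 had 0.12 and Ifitm1 0.97 without droplets of another lineage, and Spp1 0.19 without its top cell. Changes of gate, of UMI minimum or of top cell alter the cells or genes counted. The cause of the other changes was not tested. Over named genes, 353 of 446 values of the comparison with the other macrophages and 545 of 731 between libraries stayed within 1 SD over the libraries or within the counting interval of the value reported, and 7 and 33 had the other sign.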
